A study of Drosophila melanogaster with 14 samples.

Results

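Before hormone, 607 regions of the Drosophila melanogaster chromosome arms held a peak of the insulator protein CP190 and no peak of Su(Hw), dCTCF or BEAF-32. They were chosen by peak presence in the 0 h lists alone, by pooling the 0 h peak lists of the 4 proteins on X, 2L, 2R, 3L, 3R and 4, merging peaks that shared 1 bp or more, and keeping regions with CP190 only. They made up 5.17% of 11734 merged regions and 10.7% of the 5650 regions with CP190. The peaks are from ChIP-seq, in which DNA bound by a protein is pulled down with an antibody and sequenced, in Kc167 cells, an established line of embryonic origin grown without serum. Cells were untreated (0 h) or given 20-hydroxyecdysone, labelled 20HE, for 3 or 48 h at 5e-07 M, a unit stated on the 3 h labels only. Each protein and time had 1 library, 12 in all, and the 2 input libraries of untreated cells were not analysed here. All results hold for this cell line alone.

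Insulator proteins mark places where chromatin domains meet and where contacts between enhancers and promoters can be blocked. CP190 has zinc fingers and a BTB domain and is known mainly as a shared cofactor that is brought to DNA by other insulator proteins. Su(Hw) binds the gypsy insulator, dCTCF is the orthologue of the vertebrate boundary protein CTCF, and BEAF-32 is a boundary element factor often found near gene starts. 20-hydroxyecdysone is the steroid that drives moulting and metamorphosis, and Kc cells respond to it. A CP190 peak with no partner peak is therefore a place where the lists name none of these 3 DNA-binding proteins.

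The 0 h lists chose the regions, so their 0 h widths, scores and distances are described without a test. Peaks at 3 and 48 h were not used by the rule. With 1 library for each protein and time there was no replicate spread and no test, and the 95% Wilson intervals cover counting error only. The score of a peak is the authors' own value, defined nowhere in the labels or lists, and it serves only to rank peaks within a list. Peaks scoring 3100 or higher were given a common rank, called the ceiling here. The lists hold no read counts, so depth is unknown, and a missing peak means that none was listed, not that the protein was absent. On the arms CP190 had 5720, 6254 and 5667 peaks at 0, 3 and 48 h, and BEAF-32 had 4187, 5882 and 5896. For Su(Hw) the lists held 7951, 8492 and 8329, and for dCTCF 4003, 4085 and 3333.

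CP190 was seldom listed without a partner before hormone. Alone, it held 10.7% of its regions (95% interval 9.96 to 11.6). For Su(Hw), the share of its regions with no other protein was 47.9% (3704 of 7739), for BEAF-32 27.3% (1127 of 4131) and for dCTCF 20.5% (784 of 3816). The other CP190 regions were 1433 with Su(Hw) only, 700 with BEAF-32 only, 240 with dCTCF only, 1311 with 2 partners and 1359 with 3.

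CP190-alone regions stood low in the CP190 list. Each held exactly 1 CP190 peak, with a median width of 862 bp and quartiles of 712 and 997 bp. Peaks of CP190 in regions with 1 partner had a median of 912 bp, and in regions with 3 partners 1164 bp. The median score was 237, at the 24.8th percentile of the 0 h list. The score percentile was 26.4 for regions with BEAF-32 only, 42.6 with Su(Hw) only, 54.5 with dCTCF only and 76.5 with 3 partners. Of the CP190-alone regions, 305 (50.2%) lay in the lowest of 4 score classes of equal size, made by dividing the 0 h list at scores of 239, 586 and 2094. The next classes held 195 and 86, and the highest 21 (3.46%). The ceiling was reached by 12 of them (1.98%), against 19.1% of all CP190 regions. By score they stood closest to the regions with BEAF-32 only, whose CP190 peaks had a median width of 914 bp. By width the nearest class was that with Su(Hw) only, at 890 bp.

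**Figure D1:**
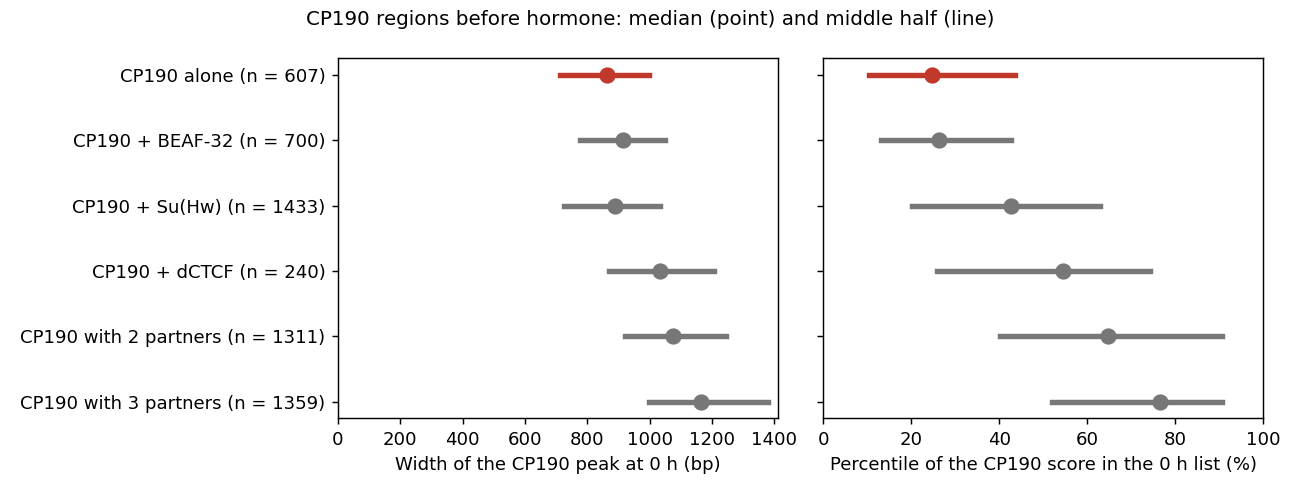
Width of the CP190 peak in bp (left) and percentile of its score within the 0 h CP190 list (right) for 6 classes of CP190 region at 0 h. Points are medians and lines join the lower and upper quartiles. CP190-alone regions have the lowest medians, 862 bp and 24.8.

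A few CP190-alone regions were strong and remained so. At the ceiling were 12 regions, of which 9 held CP190 and no partner at 3 and 48 h. Keeping CP190 was not particular to them: all 1408 regions with a partner in the highest score class had it at both times. The 5 widest of the 12 are described here. The widest of all 607 was 3L:24161543-24169553, at 8011 bp. Its CP190 peak was listed again at the ceiling at 3 h (7834 bp) and at 48 h (7878 bp), with no partner at any time. The region 3L:24456913-24458242 lay 69932 bp from the next 0 h peak of any of the 4 proteins, the largest such distance among the 607, and was also CP190 alone at all 3 times. So were 2L:9089424-9090684, whose nearest partner peak was Su(Hw) 8312 bp away, and 2R:942736-943831. Among these 5, 2R:9370181-9371439 lay 1124 bp from a 0 h BEAF-32 peak. At 3 h it held BEAF-32 (score 1473.14) and Su(Hw) (190.01), and at 48 h again BEAF-32 (1158.4) and Su(Hw) (304.05). Coordinates are those of the lists, counted from 1. The sequence names are those of Release 5, but no label or list states the build, so positions in genes and DNA letters are not given.

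The next widest regions were on 2L and had CP190 alone at each time. The region 2L:11543408-11546165 (2758 bp) lay inside a 3 h CP190 peak of 4622 bp and met a 48 h peak of 2952 bp. The region 2L:8598290-8600951 (2662 bp) met CP190 peaks of 7006 bp at 3 h and 5183 bp at 48 h, and 2L:16157167-16159687 (2521 bp) met peaks of 6492 and 5007 bp. All 3 had another 0 h CP190 peak within 1 kb, 658, 385 and 169 bp away. In total, 11 CP190 peaks at 3 h and 9 at 48 h spanned more than 1 CP190-alone region, taking in 23 and 18 of them.

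Arms differed in how often CP190 stood alone. On 2L it did in 14.6% of CP190 regions (141 of 964, 12.5 to 17.0), on 3L in 11.1% (127 of 1144), on 2R in 10.3% (111 of 1074), on 3R in 9.48% (130 of 1372) and on X in 9.07% (97 of 1069, 7.50 to 10.9). The interval of 2L lay above those of X, 2R (8.65 to 12.3) and 3R (8.04 to 11.1) and overlapped that of 3L (9.41 to 13.1). Those of X, 2R, 3L and 3R overlapped each other. Chromosome 4 had 1 such region among 27 with CP190.

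Most CP190-alone regions lay a few kilobases from partner peaks. The median distance to the nearest partner peak was 3015 bp, and it was under 200 bp for 22 regions, from 200 bp to under 1 kb for 89, from 1 kb to under 5 kb for 295 and 20 kb or more for 15. The nearest partner was BEAF-32 for 309 regions (50.9%), Su(Hw) for 231 (38.1%) and dCTCF for 67. Median distances were 5789 bp to BEAF-32, 6486 bp to Su(Hw) and 9335 bp to dCTCF. The nearest other CP190 peak was 3788 bp away at the median, against 5096 bp for all CP190 regions, 3943 bp for those with BEAF-32 only and 6702 bp for those with Su(Hw) only. After the most isolated region, already named, came 2L:15689490-15690569, 32693 bp from any other peak, and 3L:14309184-14310066, 29899 bp from any. Both held CP190 alone at all 3 times.

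**Figure D2:**
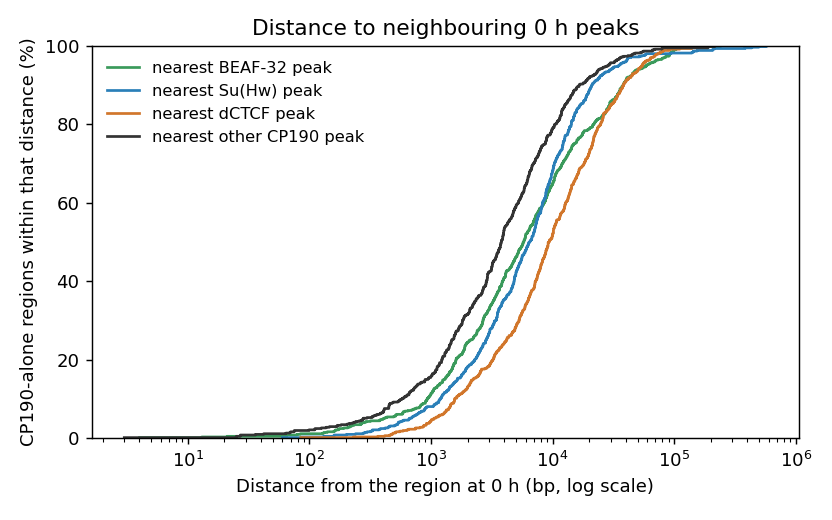
Share of the 607 CP190-alone regions (%) that have a 0 h peak of each kind within a given distance (bp, log scale). Other CP190 peaks are nearest, with a median of 3788 bp, and dCTCF peaks farthest, with 9335 bp.

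The requirement of no overlap separates neighbours by a few base pairs. Just inside it were 3L:8492483-8493590, 4 bp from a BEAF-32 peak (CP190 score 190.19), 3L:1246706-1247336 at 13 bp (110.4) and X:4595965-4596740 at 21 bp (112.92). Just outside were X:8335936-8337402, where CP190 (386.83) shared 27 bp with BEAF-32, and 2R:9709286-9710582 (273.16) and 2R:19242244-19243411 (169.43), where 80 bp were shared with Su(Hw) and BEAF-32. The first of these inner regions stayed CP190 alone at 3 and 48 h, and the next 2 had a BEAF-32 peak at both times.

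CP190-alone regions were mostly scattered. In windows of 50 kb, 389 were the only one in their window, 82 windows held 2, 13 held 3 and 2 held 4. The next CP190 region along the arm was another CP190-alone region in 18.7% of cases (113 of 605), beside 10.7% of all CP190 regions. The windows with 4 were 2L:20150001-20200000, where no region had BEAF-32 at 3 or 48 h, and 2R:8050001-8100000, where 4 had it at 3 h and 3 at 48 h.

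The fullest window, X:11450001-11500000, held 7 CP190-alone regions among 11 with CP190, and part of it was evenly spaced. From X:11480998-11481769 to X:11493531-11494168, 7 successive CP190 regions had centres 2018 to 2138 bp apart. Of these, 5 held CP190 alone, and 2 held CP190 with BEAF-32, the fourth (X:11487271-11488048) and the last (X:11493531-11494168). Their CP190 scores at 0 h ran from 103.75 to 826.34, the last region having the highest. Of the 5 CP190-alone regions, all had CP190 at 3 h and only X:11489364-11490024 had it at 48 h. BEAF-32 was listed there at 3 h at X:11480998-11481769 and X:11489364-11490024, and at 48 h at X:11483068-11483735 and X:11485153-11485925, so that no region of the 5 had it at both times. Whether the underlying sequence is repeated was not tested, since no genome of the build was used.

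After hormone most CP190-alone regions still held CP190. A CP190 peak overlapped 543 of 607 at 3 h (89.5%, 86.8 to 91.7) and 446 at 48 h (73.5%, 69.8 to 76.8). Over all CP190 regions the shares were 96.4% and 89.3%. Regions with CP190 and BEAF-32 only gave 92.9% (90.7 to 94.5) and 79.0% (75.8 to 81.9), overlapping the CP190-alone intervals. With lists of equal length for each protein the shares of CP190-alone regions were 82.7% and 75.1%. CP190 was listed at both times in 427 regions (70.3%), at 3 h only in 116 (19.1%), at 48 h only in 19 (3.13%) and at neither in 45 (7.41%).

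The regions without CP190 later were mostly low-scoring. In the lowest score class, 79.3% of CP190-alone regions (242 of 305, 74.4 to 83.5) had CP190 at 3 h and 52.1% (46.5 to 57.7) at 48 h. CP190 regions with a partner in the same class gave 87.4% (85.3 to 89.3) and 65.2% (62.3 to 68.0), above those intervals. Among them, regions with Su(Hw) only gave 88.6% (85.2 to 91.2) and 67.1% (62.5 to 71.3), also above. Regions with BEAF-32 only gave 85.1% (80.9 to 88.5) and 62.6% (57.3 to 67.7). Those with dCTCF only gave 80.0% (67.6 to 88.4) and 54.5% (41.5 to 67.0). The BEAF-32 and dCTCF intervals overlapped those of CP190-alone regions at both times. In the second class the CP190-alone shares were 99.5% and 92.8%, beside 99.7% and 94.5% with a partner, and the intervals overlapped. In the third class 86 of 86 CP190-alone regions had CP190 at 3 h and 85 at 48 h, and in the highest 21 of 21 had it at both. Regions with a partner gave the same picture: 1333 of 1333 and 1332 in the third class, and 1408 of 1408 at both times in the highest. All 12 CP190-alone regions at the ceiling had it at both times. The median 0 h score was 319 where CP190 was listed at both times, 146 where it was listed at 3 h only and 123 where it was listed at neither.

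**Figure D3:**
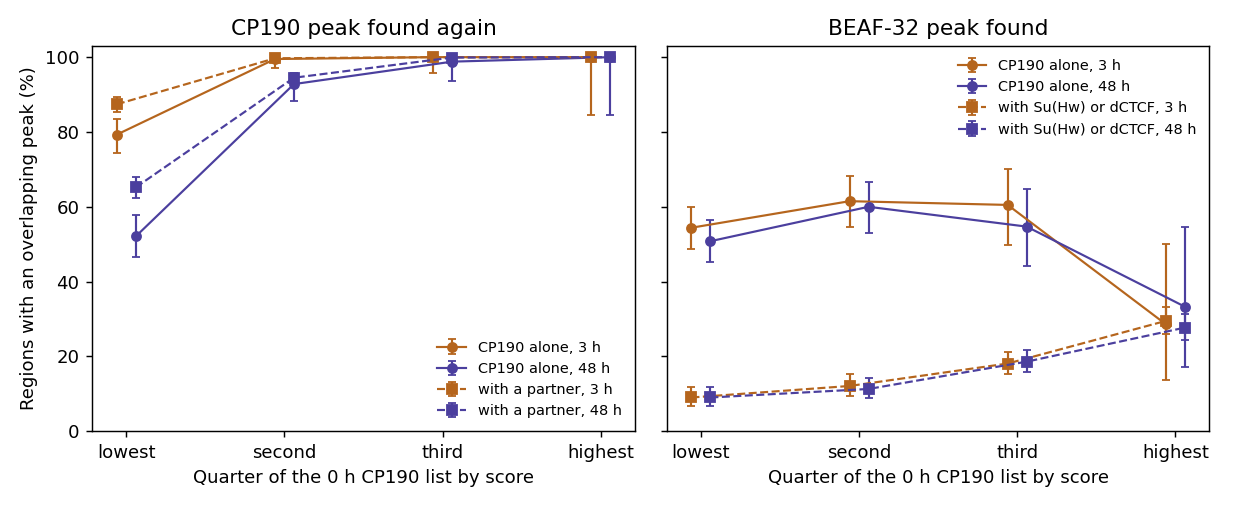
Share of regions (%) with an overlapping CP190 peak (left) and BEAF-32 peak (right) at 3 and 48 h, by score class of the 0 h CP190 list. Circles are CP190-alone regions, squares are CP190 regions with a partner (left) or with Su(Hw) or dCTCF but no BEAF-32 (right), and bars are 95% Wilson intervals. CP190 is found again in 79.3% and 52.1% of CP190-alone regions of the lowest class, and BEAF-32 in 54.4% and 50.8%.

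The highest-scoring region without CP190 at 48 h was 3L:23730041-23731335, with a score of 925.55 at 0 h (60.3rd percentile) and 201.62 at 3 h, and no peak of any protein at 48 h. The region 3L:16340775-16341548 (434.54 at 0 h, 318.41 at 3 h) also had no peak at 48 h. At 3L:11623560-11624283 (395.6 at 0 h, 428.74 at 3 h) BEAF-32 was listed at 3 h (459.25) and remained at 48 h (387.01), when CP190 was not. Regions with CP190 at neither treated time scored lower: the 4 highest were 2R:9046-9750 (220.66), 3L:5138946-5139412 (203.18), 3R:480021-480826 (184.86) and 3R:8750682-8751228 (173.59). Of these, 3L:5138946-5139412 had a weak BEAF-32 peak at 48 h (130.18), 3R:480021-480826 had one at 3 h (278.95), and the other two had no peak of any of the 4 proteins.

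BEAF-32 was the partner most often listed at CP190-alone regions after hormone. It was listed at 344 of 607 at 3 h (56.7%, 52.7 to 60.6) and at 326 at 48 h (53.7%, 49.7 to 57.6). Among all 2920 CP190 regions without BEAF-32 at 0 h, which include these 607, the shares were 25.8% and 24.8%. Among the 2313 with Su(Hw) or dCTCF they were 17.7% (16.2 to 19.3) and 17.2% (15.7 to 18.8). BEAF-32 was listed at both times in 314 CP190-alone regions (51.7%, against 23.3% of the 2920), at 3 h only in 30, at 48 h only in 12 and at neither in 251 (41.4%). Of the 344 regions with BEAF-32 at 3 h, 91.3% had it at 48 h, and of the 263 without it, 4.56% did.

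On the arms the 0 h BEAF-32 list was shorter than the later ones. Over all sequences the lists held 6135, 6830 and 6536 peaks at 0, 3 and 48 h, of which 1948, 948 and 640 lay outside the arms. The shares fell when the arm lists were shortened to equal length by score. CP190-alone regions then had BEAF-32 in 29.6% of cases at 3 h and 27.9% at 48 h, beside 13.4% and 13.5% of all CP190 regions without BEAF-32 at 0 h. Both shares of CP190-alone regions stayed above the background. A lower sensitivity of the 0 h library and new binding cannot be told apart with 1 library.

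**Figure D4:**
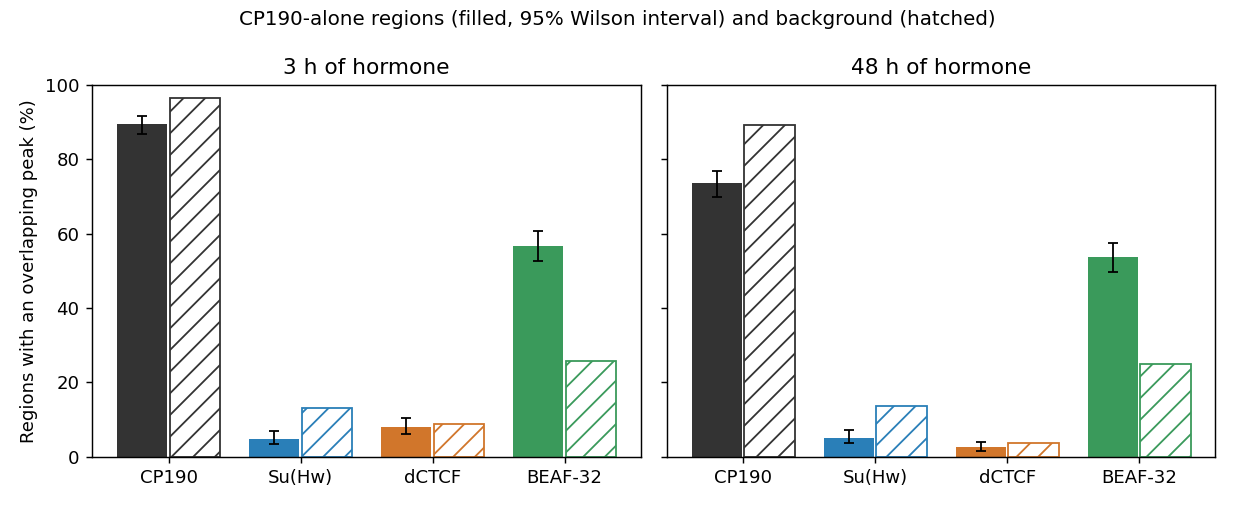
Share of CP190-alone regions (%, filled bars, 95% Wilson intervals) with an overlapping peak of each protein at 3 h (left) and 48 h (right). Hatched bars are all 0 h CP190 regions for CP190, and all 0 h CP190 regions without the protein for the partners. BEAF-32 is found at 56.7% and 53.7%, against 25.8% and 24.8%.

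The share with BEAF-32 differed widely between classes of CP190 region. At 3 h it was listed in 6.35% of regions with CP190 and Su(Hw) only (91 of 1433, 5.20 to 7.73) and in 39.2% of those with CP190 and dCTCF only (94 of 240, 33.2 to 45.5). The interval of the CP190-alone regions overlapped neither. Regions without CP190 gave 9.72% where Su(Hw) was alone, 5.10% where dCTCF was alone and 39.0% where both were present. The CP190-alone share was 54.4% in the lowest CP190 score class (48.8 to 59.9), 61.5% in the second, 60.5% in the third and 28.6% in the highest (6 of 21). Regions with Su(Hw) or dCTCF gave 9.02%, 12.1%, 18.1% and 29.5% in the same order, so the intervals stood apart in every score class but the highest. That pooled group is mostly regions with Su(Hw). Regions with CP190 and dCTCF only gave 49.3% in the third class (38.2 to 60.5), overlapping the CP190-alone interval (49.9 to 70.1), and 49.1% in the highest (36.6 to 61.7).

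BEAF-32 appeared more often where a 0 h BEAF-32 peak was near. At 3 h it was listed in 11 of 16 CP190-alone regions less than 200 bp from one, in 77.4% from 200 bp to under 1 kb (41 of 53, 64.5 to 86.5), in 72.0% from 1 to under 5 kb (152 of 211, 65.6 to 77.7), in 54.3% from 5 to under 20 kb (108 of 199, 47.3 to 61.0) and in 32 of 128 at 20 kb or more (18.3 to 33.2). Regions with CP190 and Su(Hw) only gave 22.2%, 18.1%, 6.11% and 2.30% over the last 4 distances, below the CP190-alone intervals at each. Regions with CP190 and dCTCF only gave 66.7%, 44.4%, 38.3% and 21.9%, with intervals that overlapped those of CP190-alone regions except from 1 to under 5 kb (33.5 to 55.9). From 5 to under 20 kb the overlap was slight, with 28.4 to 49.2 for the dCTCF regions. CP190 itself was listed at 3 h in 86.7% to 91.0% of CP190-alone regions in the 5 distance classes, with overlapping intervals.

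**Figure D5:**
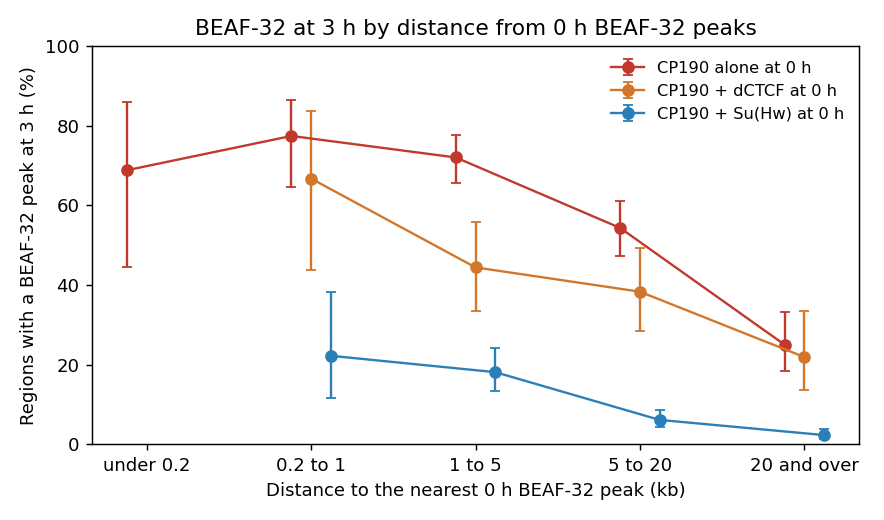
Share of regions (%) with a BEAF-32 peak at 3 h against the distance to the nearest 0 h BEAF-32 peak (kb), for CP190-alone regions and for those with CP190 and 1 other partner. Bars are 95% Wilson intervals, and classes under 10 regions are not drawn. CP190-alone regions go from 77.4% at 200 bp to under 1 kb to 54.3% at 5 to under 20 kb, and lower beyond.

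Arms differed in the same measure. BEAF-32 was listed at 3 h in 73.0% of the CP190-alone regions of 2R (81 of 111, 64.0 to 80.4) and 66.2% of those of 3R (57.7 to 73.7), and in 52.8% on 3L, 47.5% on 2L (39.5 to 55.7) and 44.3% on X (34.8 to 54.2). The interval of 2R lay above those of 3L, 2L and X, and that of 3R above those of 2L and X. At 48 h the shares were 67.6%, 60.8%, 52.0%, 44.0% and 45.4% in that order of arms. The 48 h interval of 2R (58.4 to 75.6) lay above those of 2L (36.0 to 52.2) and X (35.8 to 55.3) and overlapped that of 3L (43.3 to 60.5), while that of 3R (52.2 to 68.7) was clear of none of these. The median distance to a 0 h BEAF-32 peak was 4404 bp on 2R, 6026 bp on 3R, 5438 bp on 3L, 9712 bp on 2L and 5484 bp on X, and the part of these distances in the result was not tested. At 3 h, CP190 regions with Su(Hw) or dCTCF, mostly with Su(Hw), gave 21.6% on 2R and between 15.3% and 20.0% on the other 4 large arms. Regions with CP190 and dCTCF only also differed, at 51.9% on 2R (38.7 to 64.9) and 22.7% on X (12.8 to 37.0). On 2L, 3L and 3R they gave 45.7%, 42.3% and 35.3%.

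The BEAF-32 peaks found there were centred on CP190 and of low to middling rank. At 3 h, 94.8% had their centre within 250 bp of the centre of the CP190-alone region, with a median offset of 54.8 bp, and 343 of 344 overlapped by at least 50% of the shorter interval. Their median width was 594 bp, against 781 bp for the whole 3 h list on the arms. Their scores had a median at the 28.6th percentile of that list, 15 (4.36%) ranked in its upper 50%, and 12.5% scored under 200, close to the 12.8% of the whole list. At 48 h the median was the 28.7th percentile and 18 ranked in the upper 50%. The 350 separate BEAF-32 peaks on CP190-alone regions were 5.95% of the 3 h list, and 344 of them made up 16.4% of the 2102 BEAF-32 peaks of 3 h that overlapped no 0 h BEAF-32 peak. The whole list also holds peaks already listed at 0 h. Rank, width and offset were not summarised for the 2102 peaks or for other classes of CP190 region. These traits therefore cannot be called particular to CP190-alone regions.

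BEAF-32 reached the ceiling at 4 CP190-alone regions at 3 h and at 6 at 48 h, and 3 and 5 of these had a 0 h BEAF-32 peak under 1 kb away. The exception at both times, named after its values were seen, was 3L:1617993-1618652, 20237 bp from one, where CP190 was listed at 3 h and not at 48 h. The regions with the widest ceiling peaks, 3 at each time, are given next. At 3L:7907736-7908670 (CP190 score 592.46 at 0 h), 132 bp from a 0 h BEAF-32 peak, BEAF-32 was at the ceiling at 3 h (1887 bp wide) and at 48 h (1828 bp). At 3L:1246706-1247336, 13 bp from one, it was at the ceiling at 3 h (1797 bp) and 48 h (1859 bp), while CP190 scored 120.42 at 3 h and had no peak at 48 h. At 3R:20677081-20677678, 84 bp from one, it was at the ceiling at 3 h (1661 bp) and had a narrower peak of 601 bp at 48 h (583.78), again without CP190 at 48 h. At 2R:2555125-2555832, 268 bp from one, BEAF-32 scored 236.59 at 3 h and reached the ceiling at 48 h (1672 bp), with CP190 at both times.

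Su(Hw) seldom overlapped CP190-alone regions. It was listed at 29 at 3 h (4.78%, 3.35 to 6.78) and at 31 at 48 h (5.11%, 3.62 to 7.16), against 13.0% and 13.7% of all 1992 CP190 regions without Su(Hw) at 0 h. Counting a Su(Hw) peak within 1 kb of the region raised the shares to 12.5% and 11.9%, with no background computed for that setting, and asking for partner scores of 200 or more lowered that at 3 h to 2.77%. An overlapping peak was listed at both times in 11 CP190-alone regions (1.81%, against 6.63% of the 1992). These peaks were weak: 89.7% at 3 h and 61.3% at 48 h scored under 200, against 20.5% and 20.8% of the whole lists. Those lists are mostly peaks already listed at 0 h, with 1112 of 8492 and 1322 of 8329 overlapping no 0 h Su(Hw) peak. Scores of the latter were not summarised, so weakness cannot be called particular to CP190-alone regions. BEAF-32 was present at the same time in 19 of the 29 and 18 of the 31. The highest score at 3 h belonged to a Su(Hw) peak of 3254 bp at the ceiling, which touched the edge of 2L:472435-473500, 239 bp from a 0 h Su(Hw) peak. Next came X:2632494-2633236 (322.84), where all 4 proteins were listed at 3 h and Su(Hw) and BEAF-32 at 48 h, and 2R:14716980-14717560 (276.66), which had CP190 alone again at 48 h.

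At 48 h the strongest Su(Hw) peak at a CP190-alone region lay at 3R:5916572-5917263 (742.64). CP190 there scored 139.48 at 0 h (9.19th percentile), 340.64 at 3 h and was at the ceiling at 48 h, and the nearest 0 h Su(Hw) peak was 298 bp away. At 3R:27675636-27676623 Su(Hw) scored 363.91 at 48 h and lay within a CP190 peak at the ceiling that was 2868 bp wide and took in the neighbouring 0 h CP190 peak, 42 bp away. At 2R:19882362-19883215 Su(Hw) scored 370.1 at 48 h and CP190 107.7.

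dCTCF was listed at more CP190-alone regions at 3 h than at 48 h, and the background fell likewise. It was listed at 48 CP190-alone regions at 3 h (7.91%, 6.02 to 10.3) and 15 at 48 h (2.47%), near the 8.83% and 3.64% of all 2966 CP190 regions without dCTCF at 0 h. The shares were 13.0% and 5.44% with a dCTCF peak counted within 1 kb, and 3.30% and 1.17% with partner scores of 200 or more. The dCTCF list held 4085 peaks at 3 h and 3333 at 48 h. With lists of equal length the shares were 4.49% (3.14 to 6.37) at 3 h and 2.94% (1.89 to 4.55) at 48 h, with overlapping intervals. Of the 48, 8 had it at 48 h too (1.32% of all 607, against 1.72%). At 3 h, 89.6% of these peaks scored under 200, against 30.3% of the whole list, and none ranked in its upper 50%. Of the 4085 peaks in that list, 697 overlapped no 0 h dCTCF peak. Scores of the 697 were not summarised, so low rank cannot be called particular to CP190-alone regions. The highest 3 h scores at CP190-alone regions were 268.23 at 3L:11323712-11324727, 260.34 at X:14094815-14095625 and 223.05 at 3R:12585482-12586405. The first and last were under dCTCF peaks of 2646 and 2724 bp. At 3R:12585482-12586405 dCTCF was listed again at 48 h (166.82).

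At 48 h the 15 regions shared 13 dCTCF peaks, and several dCTCF peaks over CP190-alone regions were broad, with an upper quartile of 4969 bp and a median of 679 bp. The highest-scoring, of 8109 bp (1075.82), covered X:929865-930773. A peak of 5008 bp (326.81) covered 2R:3126136-3127205, where dCTCF had also been listed at 3 h (127.73) and CP190 scored 594.85, 1077.96 and 2075.69 at 0, 3 and 48 h. A peak of 4969 bp (258.22) met 2L:47368-48132, where CP190 was not listed at 48 h. The centre of the dCTCF peak lay within 250 bp of that of the region in 7 of 15 cases, against 72.9% of cases at 3 h.

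A pair of patterns accounted for most regions. CP190 with BEAF-32 at both treated times was found at 192 regions (31.6%), and CP190 with no partner at any time at 139 (22.9%, 19.7 to 26.4). With lists of equal length the second share was 37.8%, and BEAF-32 was listed at 27.9% at 48 h with or without CP190, so the order of these patterns turned. For comparison, 52.6% of all 5650 CP190 regions held the same proteins at all 3 times. Of the 5650, 1359 already had 3 partners and could gain none, so this share is not like for like. CP190 with BEAF-32 at 3 h and BEAF-32 without CP190 at 48 h was seen at 51 regions (8.40%), and CP190 at 3 h followed by no peak at 48 h at 40 (6.59%). At least 1 partner was listed at 373 regions at 3 h (61.4%) and 346 at 48 h (57.0%). Across all 4291 CP190 regions that lacked at least 1 partner at 0 h, an absent partner was listed in 27.2% and 24.1%. Of these 4291, 2373 already had 1 partner and 1311 had 2, so they could gain fewer than CP190-alone regions. The shares are therefore not like for like. No partner was listed at either treated time in 214 regions (35.3%). No protein at all was listed at 38 regions at 3 h, at 80 at 48 h and at 23 at both times. A partner without CP190 was listed at 26 regions at 3 h and 81 at 48 h, and BEAF-32 was the only protein in 22 and 75 of these.

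The 251 regions with BEAF-32 at neither treated time lay farther from a 0 h BEAF-32 peak, at a median of 12461 bp, than the 314 with it at both, at 3559 bp. Their median CP190 scores at 0 h were 225 and 259. The 139 regions with CP190 alone at all times had medians of 13173 bp and 353, but they were also required to have CP190 at both treated times, and the 427 regions with CP190 at both had a median score of 319. CP190 was listed at 3 h in 92.7% of regions with BEAF-32 at 3 h (319 of 344) and in 85.2% of those without (224 of 263, 80.4 to 89.0). In the lowest CP190 score class the shares were 85.5% (79.4 to 90.1) and 71.9% (64.0 to 78.7), and in the second 99.2% and 100%. At 48 h, CP190 shares were 75.5% with BEAF-32 at 48 h (70.5 to 79.8) and 71.2% without (65.6 to 76.2), with overlapping intervals, and in the lowest class 52.3% and 52.0%.

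The same rule was also applied to the treated lists. CP190 alone at 3 h was found at 364 regions, 5.87% of those with CP190, and 15.4% of them (56 of 364) had BEAF-32 at 0 h, against 8.62% of all CP190 regions without BEAF-32 at 3 h. CP190 alone at 48 h was found at 373 regions (6.66%), and 12.9% (9.85 to 16.6) had BEAF-32 at 0 h, against 8.52%. These shares are below the 56.7% and 53.7% of the 0 h choice. Their backgrounds are likewise below the 25.8% and 24.8% of that choice. The BEAF-32 list looked up was also shorter, with 4187 peaks at 0 h against 5882 at 3 h and 5896 at 48 h. The part of list length was not tested here. Between the treated times, 4.67% of the regions chosen at 3 h had BEAF-32 at 48 h, against 3.15% of all CP190 regions without it at 3 h, and 8.04% of those chosen at 48 h had it at 3 h, against 3.61%. For dCTCF the shares at 0 h were 7.14% and 10.5%, against 10.7% and 15.6% of all CP190 regions lacking it at 3 and 48 h. For Su(Hw) they were 1.65% and 2.68%, against 11.1% and 16.1%. CP190 itself was listed at 0 h in 67.3% of the regions chosen at 3 h and 65.7% of those chosen at 48 h, against 87.0% and 89.4% of all CP190 regions at those times.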

How the data were processed

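Peaks of 4 insulator proteins in Kc167 cells at 0, 3 and 48 h of 20-hydroxyecdysone were taken from 12 deposited lists of 5 columns, 1 per library, with no pooling across libraries. The score is the authors' own value per peak in the deposited lists, with no stated definition. The peak names carry the MACS prefix, per the files themselves, and the submitters' processing notes name Bowtie 0.12.5. The sources used here do not state the caller's version and settings, its control, the genome build or the depth. A caller's threshold turns signal into presence or absence, so weak sites can appear or vanish with sensitivity.

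U, Uextra, sequences ending in Het and the mitochondrial genome were left out. Peaks sharing 1 bp or more were merged, as intervals counted from 0 with an open end, and a later peak counted when it shared 1 bp with the merged region. Score percentiles are mean ranks within the arm list, and the 4 score classes divide the 0 h CP190 list evenly. The members, lists and comparisons were chosen with earlier results of these data known. Named regions are the 5 highest-scoring (ties at the ceiling, for BEAF-32 peaks too, taken by falling width), the 4 widest, the 3 most isolated, the highest-scoring without CP190 later (4 at both times, 3 at 48 h only), the 3 with the highest score of each partner at each treated time, the 3 fullest windows of 50 kb and 3 regions on each side of the overlap limit. The merging and overlap code was tested on 21850 simulated regions in 5 runs and returned 100% of the classes. Python 3.11.15 with numpy 2.4.6 and matplotlib 3.10.9 was used. Gene positions and motifs were not run, for want of a matching genome, so no sequence is printed. Shares carry 95% Wilson intervals, and 8 alternatives were tried.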

Additional observations from a re-analysis of the deposited data

Results flagged for a closer look

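On the sequences left out above (U, Uextra and the Het pieces), a further 170 regions held CP190 alone at 0 h, which was 17.8% of the 954 CP190 regions there (15.5 to 20.4). Of these, 111 lay on Uextra, 37 on U and 22 on Het pieces. CP190 was listed again at 64.1% of them at 3 h and 56.5% at 48 h, and BEAF-32 at 5 regions at 3 h and 4 at 48 h (2.94% and 2.35%). Shares over all CP190 regions of these sequences were not computed, so these values cannot be called particular to the 170. All sequences left out, the mitochondrial genome included, held 1948, 948 and 640 BEAF-32 peaks at 0, 3 and 48 h. They were singled out because they lie in data that the comparisons above do not use.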

How the results depend on the processing

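Of 118 values under 8 alternatives, 77 stayed within the 95% interval of the reported value, or within 1.5 times for the count. Asking for a partner overlap of 50% of the shorter peak at 0 h, merging peaks under 200 bp apart or asking for a later overlap of 50% moved none. With all sequences, CP190 stood alone in 11.8% of its regions, CP190 was found at 83.9% (3 h) and 69.8% (48 h), BEAF-32 at 44.9% and 42.5% (background 23.6% and 22.6%), CP190 alone at all times at 27.7%, and the medians were 829 bp for width, 28.6 for the score percentile and 3478 bp for distance. With partner peaks of score 200 or more, 939 regions (16.6%) held CP190 alone, CP190 was found at 77.7% at 48 h, Su(Hw) at 2.77% at 3 h, dCTCF at 3.30% and 1.17%, CP190 alone at all times at 26.4%, and the medians were 895 bp, 29.5 and 3837 bp. With CP190 peaks of score 200 or more, 352 regions (7.74%) remained, with a median width of 941 bp, CP190 at 94.0% at 3 h and CP190 alone at all times at 27.0%. With lists of equal length, CP190 was found at 82.7% at 3 h, dCTCF at 4.49% at 3 h, BEAF-32 at 29.6% and 27.9% (background 13.4% and 13.5%), and CP190 alone at all times at 37.8%. With a later peak within 1 kb counted, CP190 was found at 77.9% at 48 h, Su(Hw) at 12.5% and 11.9%, dCTCF at 13.0% and 5.44%, the BEAF-32 background was 28.9% and 28.7%, and CP190 alone at all times at 19.6%. The CP190-alone share with BEAF-32 stayed above that of all CP190 regions lacking it in each alternative. The causes of these moves were not tested. No replicate could be left out, and no paired analysis was possible because each protein and time had 1 library.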
